A study of Mus musculus with 16 samples.

Results

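The pituitary of control female mice kept on a high-fat diet (HFD) is compared here with that of control females kept on a standard diet (SD), gene by gene and over lists of genes. The mice were taken by the genotype and diet in their labels, with no measured value used, which gave 8 of the 16 mice of the series, 4 on each diet. RNA of the pituitary was sequenced as 1 library per mouse, in a study that followed the loss of bone mass on HFD in its mutants through several tissues. Control mice are Esr1 fl/fl, so both copies of the gene for oestrogen receptor alpha carry loxP sites, and they have no Cre. The other 8 mice, called mutants, carry the same floxed copies together with a Cre driven by Nkx2-1, a gene of the ventral hypothalamus and of the posterior lobe of the pituitary, and they serve for the spread of each gene and for their own diet comparison. All mice were female, 27 weeks old and of a mixed CD-1 and 129P2 background, and those on HFD had eaten it for 17 weeks. Values are the normalized expression that the authors deposited, which is scaled for transcript length and per library as far as the numbers show, and they summed to between 908897 and 1080959 in the 8 controls. The number of reads per library was not used here, so the depth behind each value is unknown. Values of single mice are given in the order P356, P358, P359, P383 on SD and P385, P390, P391, P392 on HFD.

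The pituitary releases hormones that govern growth, reproduction, lactation, the thyroid and the adrenal, each from its own cell type. Like most cells, these cells hold a molecular clock in which the proteins of Clock or Npas2 and Arntl switch on genes such as Per2, Dbp, Tef and Ciart, and in which the products of the Per and Cry genes switch that activity off again over the day. A diet rich in fat is known to alter lipid handling and the signals of insulin and leptin, and it can shift when mice eat.

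P392, an HFD control, stood apart from the other 7 controls. In a principal component analysis of the 8 controls the leading component held 36.7% of the variance, and P392 lay at 60.2 on it where the others lay between -22.5 and 18.6. Its mean correlation with the other 7 across genes was 0.932, against 0.957 to 0.963 for each of them. It lay over 1 log2 unit above all 7 others in 245 genes and as far below them in 128, where no other control did so in more than 21 and 28. Among genes that part the mutants from the other controls, P392 lay mostly with the mutants. Of 14345 tested genes, the 8 mutants did not overlap with the other 7 controls in 544. P392 lay within the range of the mutants in 334 of these and within that of the controls in 28. It was nearer to the mean of the mutants in 510. No other control was left out and placed in this way. The ribosomal protein gene Rps7, for example, had values of 77.03, 37.7, 50.5 and 47.2 on SD and 80.8, 40.5, 57.3 and 357.9 on HFD, and of 312 to 456 in the 8 mutants. Only P392 reached the level of the mutants. Esr1 itself was 40.5, 46.6, 39.4 and 29.02 on SD and 23.6, 43.4, 42.7 and 39.6 on HFD, and 10.02 to 33.4 in the mutants, so P392 lay among the controls in the gene that the mutants lack in part. Whether P392 is a control in genotype was not tested, and most differences between the diets are given with it and without it.

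P356, on SD, and P385, on HFD, lay beside each other. Their values across genes correlated at 0.979, more than any other pair among the 8, although their diets differ. The weight that limma estimates for each library was 0.378 for P392, 0.532 for P356 and 0.721 for P385. It was between 1.06 and 1.604 for the other 5 controls, and 0.152 for P357, a mutant on SD. In fits without a covariate P357 enters the comparison of controls only through the spread, and it enters the values of mutants directly. Diet also went with the animal numbers. The 4 controls on HFD and P383 on SD carry numbers from an upper range, and the other 3 controls on SD numbers from a lower range, so within the upper range P383 is the only SD control and within the lower range there is no HFD control. Diet and animal-number range can therefore be told apart in controls only through P383, and with the mutants through a fit that holds the range as a covariate. That fit estimates the range over all mice, and P357 is the only SD mutant of the lower range. The values of P357 therefore enter the control differences of that fit directly, and their part in them was not tested.

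Across the whole transcriptome no gene passed the test. Of 14345 genes tested with limma over all 16 mice, 0 differed between HFD and SD in controls at an adjusted p under 0.05 (0%), and 592 had an unadjusted p under 0.05 (4.13%), 276 of them higher on HFD (1.92%) and 316 lower (2.20%). The HFD and SD controls did not overlap in 375 genes (2.61%), 180 higher (1.25%) and 195 lower (1.36%). Without P392, 0 of 14333 genes passed in limma (0%), with 458 at an unadjusted p under 0.05 (3.20%), 181 higher (1.26%) and 277 lower (1.93%), and 688 with no overlap between 3 HFD and 4 SD mice (4.80%), 303 higher (2.11%) and the rest lower (2.69%). The genes at an unadjusted p under 0.05 were in part others without P392, since 287 were shared, 305 were found only with it and 171 only without it. The median log2 difference over all tested genes was 0.0011 with P392 and -0.0057 without, and 157 genes differed by more than 1 log2 unit with it and 132 without.

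Single libraries moved these counts. Without P356 there were 1253 genes at an unadjusted p under 0.05 and without P391 909, both with 0 at an adjusted p under 0.05 in limma, and without P356 and P392 together there were 883. Without P358 the count was 380. Among the same 14345 genes, those with no overlap between the diets became 1398 without P356, 571 without P358, 677 without P359, 673 without P383, 778 without P385, 737 without P390, 845 without P391 and 691 without P392, where fewer mice leave more genes apart by construction. Leaving out P383 gave 6 genes past the adjusted threshold, and leaving out P385 gave 2. The closest to the threshold with all 16 mice were Ciart, a repressor within the clock, and Ptges3l, a gene related to that of the co-chaperone p23, both at an adjusted p of 0.0564, and without P392 the transcription regulators Id1 and Id3, both at 0.0655. With the animal-number range as a covariate there were 894 genes at an unadjusted p under 0.05 (660 without P392), with 0 after adjustment in limma, and with libraries weighted by their spread 1044 (1063). In the weighted fit 5 genes passed with P392 (Ptges3l, Id1, Ciart, Egr3 and Id3) and 6 without it (Ptges3l, Id1, Id3, Ciart, Hist1h4c and Aldh1l2). Genes named below that fall outside the naming rule are Ptges3l, Id2, Hist1h4c, Aldh1l2, Dnajb1, Plat, Echdc3, Alox12e, Gm11331, Gm13988 and members of the lists other than their most abundant and their largest differences. These were chosen after their values were seen. So was Gm20530, although its log2 difference of 2.05 with no overlap meets the rule.

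Genes of the clock made up the group with the most members at a low p. All 20 genes of the clock list were tested, 14 were higher on HFD and 6 lower, and their median log2 difference was 0.31 beside 0.0011 over all tested genes. At an unadjusted p under 0.05, 8 were higher (Ciart, Dbp, Tef, Per2, Per3, Bhlhe41, Bhlhe40 and Nr1d2) and 4 lower (Npas2, Arntl, Cry1 and Clock), against 1.92% and 2.20% of all tested genes, and none passed after adjustment in limma. Without P392 the list median was 0.28, with 7 higher and 2 lower at that p (beside 1.26% and 1.93%). Split by role, the lower genes at that p with all mice were Arntl, Clock and Npas2, whose products activate the clock genes, and Cry1, a repressor with a late peak. The higher genes at that p were targets or feedback regulators.

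Ciart (Ensembl ENSMUSG00000038550, chromosome 3, 95878503 to 95882251), whose product represses CLOCK and BMAL1, had normalized expression of 2.13, 0.659, 0.774 and 1.84 on SD and 3.98, 11.9, 9.26 and 10.8 on HFD. All 4 HFD mice lay above all 4 SD mice, and P385 was the lowest of the HFD mice. Its log2 difference was 2.35 (SE 0.36, n = 4 against 4, limma adjusted p 0.0564, two-sided exact permutation p 0.0286, the smallest that 4 against 4 can give) and 2.23 without P392 (adjusted p 0.123). It passed without P383 (limma adjusted p 0.0359), without P385 (0.00642) and with weighted libraries (0.0203). With each control left out in turn its limma adjusted p ran from 0.00642 to 0.366, and in a fit of the 8 controls alone, without the spread of the mutants, it was 0.882. In mutants Ciart was 2.71 to 7.29 on SD and 3.27 to 5.36 on HFD, a log2 difference of 0.056, and the interaction with genotype, 2.29, did not pass (limma adjusted p 0.846).

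Dbp and Tef encode related activators whose messages follow the clock closely. Dbp was 11.2, 17.7, 15.2 and 46.1 on SD and 41.1, 139.8, 72.1 and 53.99 on HFD, and Tef was 47.8, 51.5, 51.4 and 99.1 on SD and 86.1, 212, 136 and 136 on HFD. In both genes P390 was the highest mouse and P383 the highest of the SD mice, above P385 on HFD, so the groups overlapped through P383. Their log2 differences were 1.80 (SE 0.37, limma adjusted p 0.317) and 1.18 (SE 0.29, adjusted p 0.644), and 1.92 and 1.18 without P392. Without P383, Dbp passed the threshold (limma adjusted p 0.0126), without any other control it did not (up to 0.999), and in the 8 controls alone it had 0.943. Per2, a repressor, was 4.26, 3.13, 3.11 and 4.3997 on SD and 5.64, 9.62, 7.17 and 11.9 on HFD, with no overlap and a log2 difference of 1.07 (0.90 without P392). Its relative Per3 was 12.3, 14.4, 16.4 and 25.7 on SD and 17.95, 55.4, 30.9 and 21.8 on HFD, with P390 highest and with P385 and P392 below P383.

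Arntl, which encodes BMAL1, ran the other way, at 19.5, 27.5, 20.2 and 12.7 on SD and 13.1, 5.11, 13.6 and 12.1 on HFD. P390 had the lowest value of all and P383 lay among the HFD mice, while the other 3 SD mice were above every HFD mouse. The log2 difference was -0.87 (SE 0.26, limma adjusted p 0.998), -0.95 without P392. Clock, its partner, was 9.28, 9.57, 8.504 and 8.66 on SD and 7.39, 8.15, 7.53 and 6.71 on HFD, lower in each HFD mouse than in any SD mouse, by a log2 difference of -0.26 (-0.21 without P392). Npas2, which can replace Clock, differed by -0.93, and Cry1 by -0.38, with overlap in both (-0.67 and -0.30 without P392). Nr1d1, which represses Arntl, was 23.1, 45.05, 61.8 and 97.95 on SD and 60.02, 109, 78.1 and 42.8 on HFD, and its groups overlapped widely (log2 difference 0.44, 0.67 without P392).

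**Figure D1:**
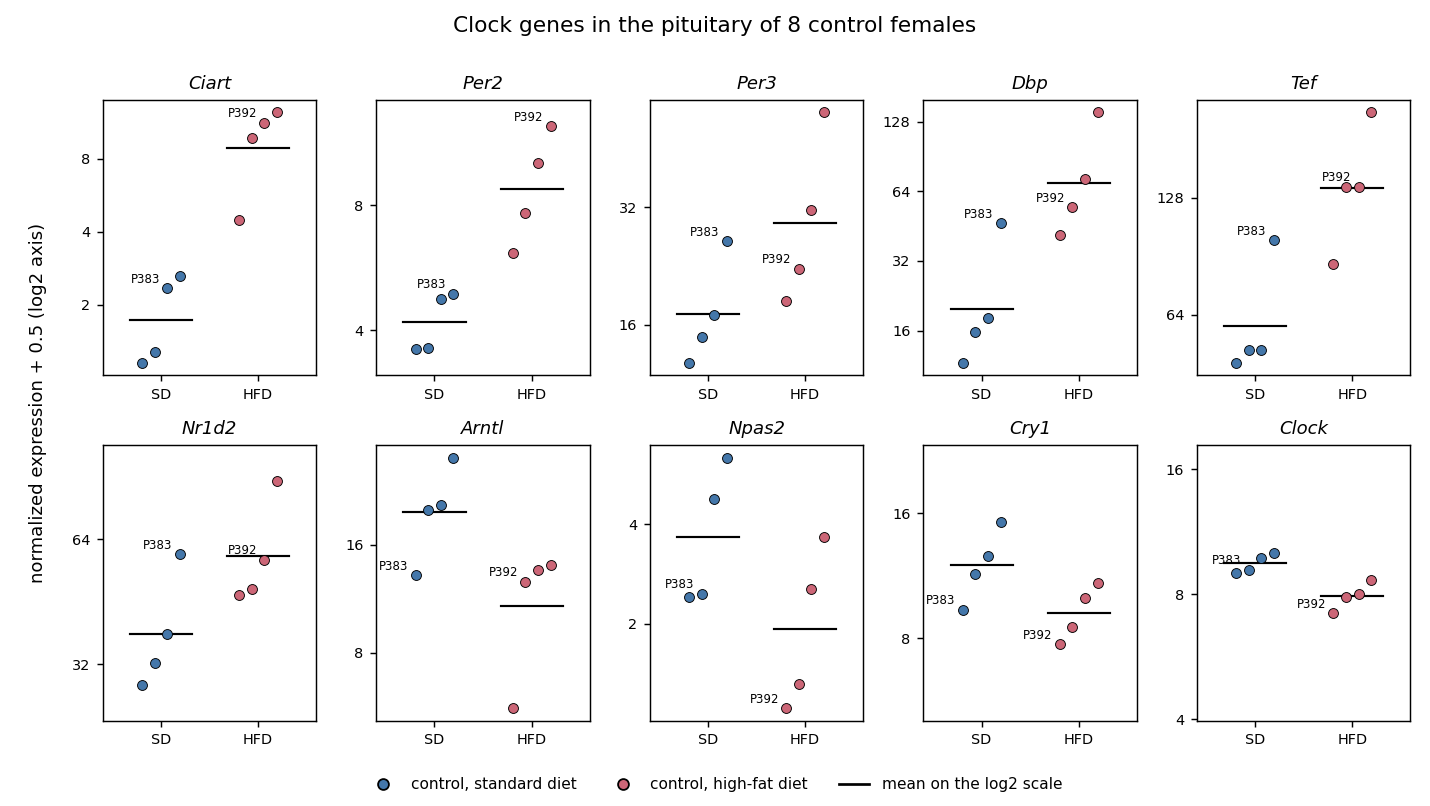
Normalized expression plus 0.5 of 10 clock genes in each of the 8 control mice, on log2 axes, with SD in blue, HFD in red, a line at each group's mean and the mice P383 and P392 named. Ciart, Per2 and Clock show no overlap between the diets, and in Per3, Dbp, Tef, Nr1d2 and Arntl the SD mouse P383 lies among the HFD mice.

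The list moved with P383 and with the animal-number range. Its median was 0.40 without P383, 0.17 without P356 and 0.49 without P385, and it was 0.032 with the range as a covariate (0.14 without P392). In that fit with all mice Ciart had a log2 difference of 2.17 (limma adjusted p 0.381), Dbp 1.34, Per2 1.12, Tef 0.68 and Nr1d1 0.025. The labels do not give the hour at which each pituitary was taken. The mutants, which share no mouse with this comparison, had a list median of 0.17 between their diets (0.10 without P357), with 15 genes higher and 5 lower. Over all tested genes the mutants had a median of 0.023, with 54.2% higher. In mutants Dbp differed by 0.88, Per2 by 0.56, Nr1d2 by 0.51 and Npas2 by -1.20 with no overlap between the diets in any of the 4, whereas Arntl differed by -0.19 and Clock by 0.012. The share of all tested genes with no overlap between the diets in mutants was not counted.

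The sequence upstream of the starts of these genes was searched for the motif that CLOCK with BMAL1 is known to bind, the E-box CACGTG, which reads the same on both strands. RefSeq promoters were taken from GRCm38.p6 as the 250 bases before the start. Of the 20 listed genes 17 matched a promoter by symbol, with 23 promoters, and 6 of these promoters, of 5 genes, held the motif (Ciart, Tef with 2, Cry1, Bhlhe41 and Per1), while 1978 of all 32851 promoters held it (6.02%). The D-box TTATGTAA, searched on both strands and known as a site of DBP and TEF, was in 1 of the 23 promoters, that of Per3, and in 269 of all promoters (0.819%). The promoters shown are those of Ciart and Tef, higher on HFD, and of Cry1, lower on HFD, with the E-box in capitals, and that of Per3 with the D-box in capitals, each 5′ to 3′ on the strand of its gene. They lie at chr3:95882229-95882478, minus strand (Ciart), chr15:81802423-81802672, plus strand and chr15:81811164-81811413, plus strand (Tef, 2 starts), chr10:85185055-85185304, minus strand (Cry1) and chr4:151044666-151044915, minus strand (Per3).
Ciart: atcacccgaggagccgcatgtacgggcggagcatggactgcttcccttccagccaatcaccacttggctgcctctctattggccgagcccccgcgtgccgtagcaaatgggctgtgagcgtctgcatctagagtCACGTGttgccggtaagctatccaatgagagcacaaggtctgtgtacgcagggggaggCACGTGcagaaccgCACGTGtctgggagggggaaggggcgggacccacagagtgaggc
Tef start 1: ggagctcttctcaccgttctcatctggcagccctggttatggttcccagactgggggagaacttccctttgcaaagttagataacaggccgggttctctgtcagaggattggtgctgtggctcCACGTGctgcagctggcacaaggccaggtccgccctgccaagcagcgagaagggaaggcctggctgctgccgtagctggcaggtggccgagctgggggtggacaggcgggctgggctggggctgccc
Tef start 2: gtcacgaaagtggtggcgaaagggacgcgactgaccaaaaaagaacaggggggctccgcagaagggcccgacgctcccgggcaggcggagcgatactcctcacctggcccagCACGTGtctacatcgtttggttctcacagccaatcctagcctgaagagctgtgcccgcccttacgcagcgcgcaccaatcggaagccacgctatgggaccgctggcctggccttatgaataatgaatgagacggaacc
Cry1: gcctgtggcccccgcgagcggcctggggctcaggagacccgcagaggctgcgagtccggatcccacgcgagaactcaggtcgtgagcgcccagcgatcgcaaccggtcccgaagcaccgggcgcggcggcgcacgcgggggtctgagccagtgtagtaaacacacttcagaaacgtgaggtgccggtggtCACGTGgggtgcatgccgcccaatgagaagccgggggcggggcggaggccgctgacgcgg
Per3: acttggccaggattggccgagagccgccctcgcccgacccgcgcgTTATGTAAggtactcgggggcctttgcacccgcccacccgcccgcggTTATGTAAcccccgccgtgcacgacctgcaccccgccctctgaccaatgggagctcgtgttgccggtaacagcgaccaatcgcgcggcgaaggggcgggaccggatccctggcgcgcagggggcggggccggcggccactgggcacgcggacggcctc
Ciart holds 3 E-boxes in this window and Per3 2 D-boxes. Genes with the motif include both higher and lower ones, and the promoters of Dbp, Npas2 and Clock do not hold the E-box in this window. The list was put together from known clock genes, so its share of motifs does not bear on the diet.

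The Id genes encode proteins that bind other helix-loop-helix transcription factors and keep them from DNA, and they are known targets of BMP signalling. Id1 (Ensembl ENSMUSG00000042745, chromosome 2, 152736251 to 152737410) was 8.32, 7.89, 2.86 and 5.58 on SD and 29.5, 22.7, 19.9 and 11.6 on HFD. Id3 (Ensembl ENSMUSG00000007872, chromosome 4, 136143497 to 136145755) was 11.7, 15.8, 6.52 and 8.796 on SD and 51.8, 25.9, 39.8 and 16.5 on HFD. Id2 was 17.8, 15.5, 11.5 and 11.1 on SD and 30.7, 21.3, 23.7 and 23.1 on HFD. In all 3 genes each HFD mouse lay above each SD mouse, and in Id1 and Id3 P392 was the lowest HFD mouse. The log2 difference of Id1 was 1.71 (SE 0.30, limma adjusted p 0.175, exact permutation p 0.0286), that of Id3 1.54 (SE 0.31, adjusted p 0.317) and that of Id2 0.81 (SE 0.16, adjusted p 0.266). Without P392 they were 1.96, 1.84 and 0.84, and without P392 and P358 both Id1 (limma adjusted p 0.0436) and Id3 (0.0366) passed, as Id1 did without P392 and P359 (0.0425). With all other mice kept, leaving out single controls gave limma adjusted p of 0.0655 to 0.444 for Id1 and 0.0655 to 0.999 for Id3, and the 8 controls alone 0.943 for both. With P392 and 1 further control left out they were 0.0425 to 0.279 and 0.0366 to 0.599, and in the 7 controls alone 0.587 for both. When single control mice were left out the difference of Id1 ran from 1.41 to 1.96. With the animal-number range as a covariate they were 1.83, 1.49 and 0.92. In mutants these genes differed between the diets by -0.32, 0.17 and 0.028, and the interactions with genotype were 2.02, 1.38 and 0.78 (limma adjusted p 0.643, 0.924 and 0.924).

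Ptges3l (Ensembl ENSMUSG00000097487, chromosome 11, 101418812 to 101425333) was 13.1, 11.4, 10.7 and 13.6 on SD and 21.8, 22.3, 26.8 and 22.4 on HFD, so each HFD mouse had more than any SD mouse. The log2 difference was 0.91 (SE 0.14, limma adjusted p 0.0564) and 0.93 without P392 (adjusted p 0.0931), and it ran from 0.85 to 0.97 when single control mice were left out. It passed without P383 (limma adjusted p 0.0359) and without the mutant P357, which enters this comparison only through the spread (0.00988). With each control left out its adjusted p ran from 0.0359 to 0.366, and in limma on the 8 controls alone it was 0.333. The mutants had 20.6 to 33.98 on SD and 17.97 to 21.7 on HFD, at or near the level of the HFD controls. Its interaction with genotype was 1.26 (limma adjusted p 0.152), the smallest adjusted p of all interactions tested, and with weighted libraries it passed (0.0319). Dnajb1, which encodes a partner of the chaperone HSP70, ran lower on HFD at 21.1, 22.1, 22.2 and 23.5 on SD and 13.1, 16.8, 16.03 and 14.6 on HFD, with no overlap and a log2 difference of -0.55 (-0.53 without P392).

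Immediate early genes, which cells switch on within minutes of a stimulus, were lower on HFD in most members. Of 23 tested, 8 were higher and 15 lower, with a median of -0.28 (-0.33 without P392), where 50.3% of all tested genes were higher. At an unadjusted p under 0.05, 1 was higher and 2 were lower, both with P392 and without it. This stands beside 1.92% higher and 2.20% lower of all tested genes (1.26% and 1.93% without P392). Egr3, a transcription factor, was 2.61, 2.04, 9.51 and 8.79 on SD and 0.591, 0.595, 0.494 and 0.283 on HFD, so every HFD mouse lay under every SD mouse, and P359 and P383 were the highest. Its log2 difference was -2.41 (SE 0.55, limma adjusted p 0.576, exact permutation p 0.0286), the largest decrease among named genes with no overlap, and -2.30 without P392. It passed with weighted libraries (limma adjusted p 0.0464), and not without any 1 control (0.268 to 1.00) or in the 8 controls alone (0.882). Its relative Egr4, which is not a member of the list, was 1.52, 1.42, 2.77 and 4.82 on SD and 0.411, 0.764, 1.03 and 0.722 on HFD, also with no overlap, and differed by -1.24 (-1.25 without P392). Arc was 2.24, 3.25, 9.23 and 16.1 on SD and 1.15, 3.17, 2.21 and 0.707 on HFD, with P383 and P359 high and the other 2 SD mice within the HFD range or near it, and its log2 difference was -1.60 (-1.33 without P392). Egr1, which activates the Lhb gene in gonadotrophs, was 32.6, 12.6, 35.5 and 49.1 on SD and 6.61, 7.05, 25.2 and 41.1 on HFD and overlapped. Jun went the other way at 12.4, 8.06, 13.2 and 11.5 on SD and 22.2, 14.4, 17.4 and 30.2 on HFD, higher in each HFD mouse (log2 difference 0.84, 0.65 without P392). The list median was -0.0060 without P383 (-0.22 without P383 and P392), and -0.11 without P385. With the animal-number range as a covariate it was -0.66 (-0.85 without P392). The SD mutant P357 enters that fit, with a mean log2 level of this list of 2.97, against 3.86 to 4.83 in the other SD mutants. In mutants the list median was -0.078, -0.26 without P357 and 0.21 without P384, and it also turned without P381 (0.047) and P388 (0.014).

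**Figure D2:**
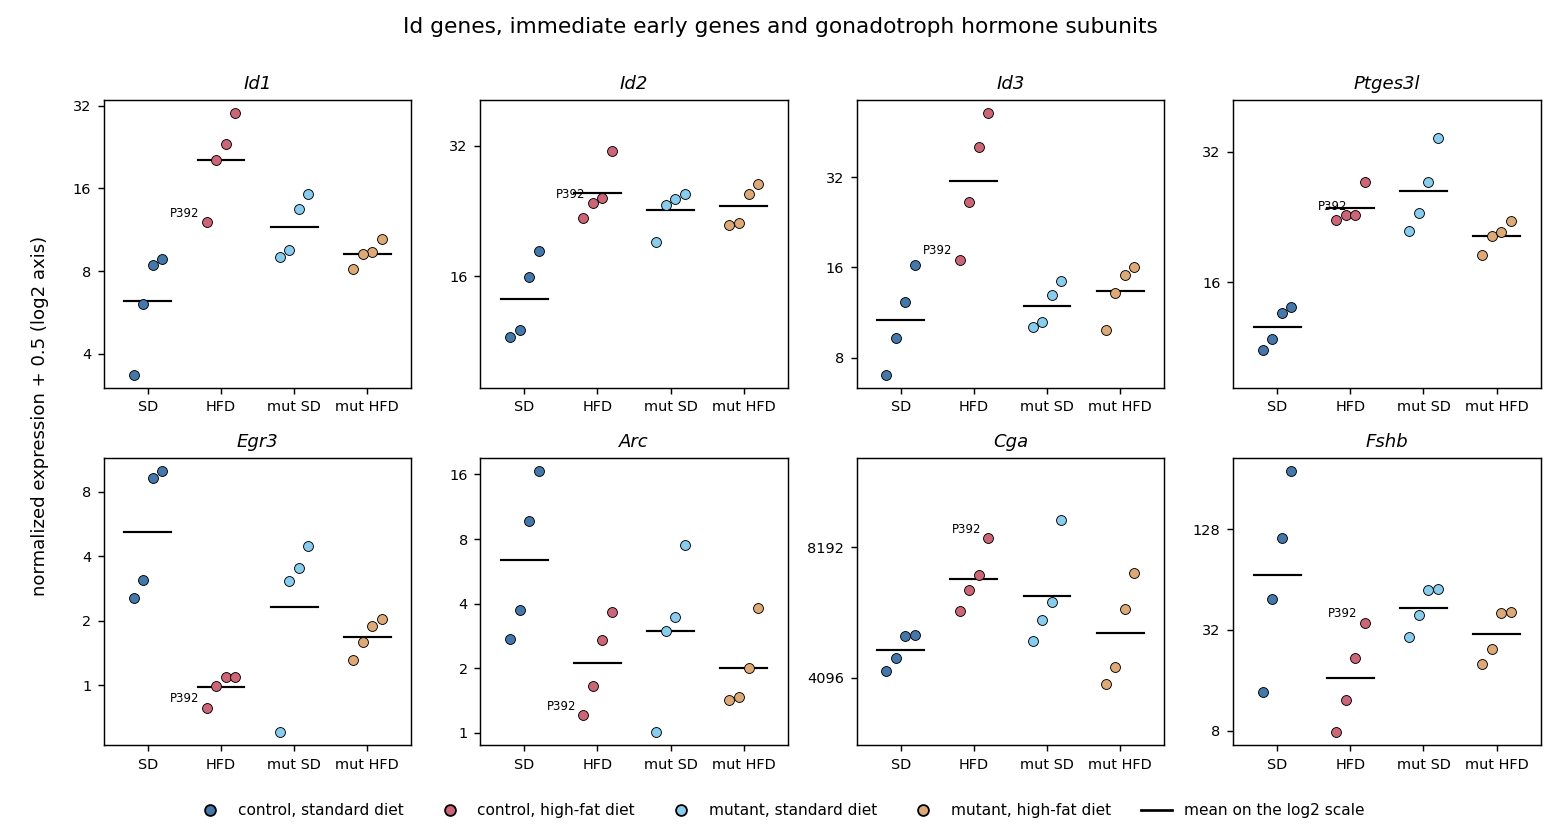
Normalized expression plus 0.5 of 8 genes in all 16 mice by genotype and diet, on log2 axes, with a line at each group's mean and P392 named. Id1, Id2, Id3, Ptges3l and Cga are higher in each HFD control than in any SD control and Egr3 lower, Arc and Fshb overlap, and in mutants the diets overlap in all 8 genes.

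Hormone genes gave no shared direction. Of the 7 hormone genes 2 were higher and 5 lower on HFD, with a median of -0.17 (-0.016 without P392, and 0.054 with weighted libraries, where it turned). Cga, the shared alpha subunit of LH, FSH and TSH, was 4552, 5114, 4242 and 5137 on SD and 7046, 5825, 6532 and 8579 on HFD. Each HFD mouse lay above each SD mouse, by a log2 difference of 0.55 (SE 0.22, limma adjusted p 0.998) and 0.44 without P392, the highest mouse. Fshb, the beta subunit of FSH, was 13.2, 48.4, 114 and 284 on SD and 21.1, 11.7, 7.34 and 34.8 on HFD. P383 and P359 were the highest and P356, on SD, was as low as the HFD mice, so the groups overlapped. Its log2 difference was -2.06 (SE 0.68, limma adjusted p 0.998), -2.42 without P392, and it ran from -2.83 to -1.37 when single control mice were left out. Lhb, the beta subunit of LH, was 921, 806, 891 and 1158 on SD and 1343, 1035, 986 and 473 on HFD, with P392 the lowest, and its difference turned from -0.060 to 0.25 without P392. The labels do not give the oestrous stage of the mice.

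Growth hormone (Gh) was 51686, 88696, 75796 and 52225 on SD and 49197, 48224, 59602 and 35647 on HFD, with overlap (log2 difference -0.46, -0.33 without P392), and Tshb of thyrotrophs was 267, 461, 348 and 277 on SD and 292, 224, 270.2 and 249 on HFD (-0.36, -0.34 without P392). Prl, the hormone of lactotrophs and the gene with the highest length-scaled value in the gland, was 313796, 285147, 330789 and 304109 on SD and 291297, 370233, 262175 and 438889 on HFD, with P392 highest and a difference of 0.12 (-0.016 without P392). Pomc, the hormone precursor of corticotrophs and melanotrophs, was 11506, 12434, 16132 and 17362 on SD and 15453, 11234, 42042 and 3443 on HFD. P391 had the highest value and P392 the lowest, both on HFD, and the difference turned from -0.17 to 0.46 without P392. In bulk tissue, fewer cells of a type and less RNA per cell cannot be told apart. Of the genes of each axis, the thyrotroph list had 6 of 9 lower (median -0.24, -0.23 without P392), the growth hormone axis 6 of 10 (median -0.072, -0.080 without P392), the gonadotroph list 7 of 14 (median 0.0026, 0.13 without P392 with 9 higher), and the lactotroph and oestrogen-induced list 7 of 14 (median -0.035, -0.11 without P392). The gonadotroph median was negative in 8 of 19 alternatives, which were a pseudocount of 1, quantile normalization, the animal-number range as a covariate (the lowest, -0.12) and leaving out P356, P358, P385, P390 or P391. The growth hormone median turned without P358 or P359 (up to 0.037). The lactotroph median turned with genes of a mean of at least 5, without P356 (0.020) and without P385 (0.13). At an unadjusted p under 0.05 the growth hormone axis had 1 gene lower and the gonadotroph list 2 higher and 1 lower. The thyrotroph and lactotroph lists had none, beside 1.92% and 2.20% of all tested genes.

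Receptors for the releasing hormones of the hypothalamus were lower on HFD in 9 of 11 tested genes, with a median of -0.30, and -0.11 without P392, where 8 were lower. At an unadjusted p under 0.05, 0 were higher and 1 lower (0 and 2 without P392). This stands beside 1.92% and 2.20% of all tested genes (1.26% and 1.93% without P392). Sstr5, a receptor for somatostatin, which holds back growth hormone and TSH, was 3.53, 3.64, 3.06 and 2.74 on SD and 1.51, 2.23, 2.66 and 2.32 on HFD. It was lower in every HFD mouse than in any SD mouse, with a log2 difference of -0.50 (SE 0.21, limma adjusted p 0.998) and -0.53 without P392. Genes of granules and prohormone processing were lower in 15 of 20 (median -0.091, -0.085 without P392), with none at an unadjusted p under 0.05 and 2 lower without P392 (beside 1.93% of all genes). In mutants 18 of them were higher on HFD with a median of 0.18, and without P357 14 with 0.026. The lineage factors had a median of -0.034 (-0.0061 without P392). Without P356 it was -0.21 and without P385 0.080, and it turned in 4 of 19 alternatives. Among neuropeptide precursors, Nmb was 9.38, 5.695, 15.3 and 9.301 on SD and 15.5, 11.7, 24.97 and 14.96 on HFD, with overlap and a log2 difference of 0.75 (0.79 without P392). The summed level of that list was 3444 in P392 and 189.9 to 1425 in the other controls, and 2335 to 4845 in the mutants.

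Of 27 tested genes of cholesterol synthesis and uptake, 16 were lower on HFD and 11 higher (median -0.10, -0.024 without P392, where it turned under quantile normalization and without P356), and at an unadjusted p under 0.05 5 were lower and 0 higher, against 2.20% and 1.92% of all genes, with 4 lower without P392 (beside 1.93%). Srebf2, which encodes a transcription factor of sterol synthesis, was 29.9, 25.2, 21.6 and 21.9 on SD and 21.3, 17.7, 17.4 and 18.4 on HFD, with each HFD mouse under each SD mouse and a difference of -0.38. The enzymes Cyp51 and Sc5d, with 4.99 to 7.48 and 8.11 to 10.8 on HFD and 6.69 to 9.68 and 10.7 to 15.1 on SD, differed by -0.46 and -0.43. Without P392 the 3 differences were -0.38, -0.44 and -0.39. In mutants they differed by 0.11, 0.15 and 0.22 (-0.056, 0.025 and 0.076 without P357), and none of the 3 interactions passed after adjustment in limma.

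Fatty acid genes of synthesis and storage had a median of -0.079 over 23 genes, of which 13 were lower, and those of uptake and oxidation 0.076 over 31, of which 20 were higher. Without P392 the medians were -0.12 and 0.066. At an unadjusted p under 0.05 the first list had 0 higher and 1 lower (none without P392) and the second 0 higher and 2 lower (4 lower without P392), beside 1.92% and 2.20% of all tested genes (1.93% lower without P392). Scd1, which makes monounsaturated fatty acids, was 2.21, 5.25, 3.29 and 2.86 on SD and 1.27, 2.64, 1.74 and 1.28 on HFD, with P356 on SD below P390 on HFD (log2 difference -0.79, -0.70 without P392). Acot1, a thioesterase that releases free fatty acids, was 4.196, 5.53, 6.97 and 3.13 on SD and 1.99, 3.56, 2.25 and 3.36 on HFD, lower on HFD apart from overlap through P383, with a difference of -0.71 (-0.80 without P392). In mutants Acot1 was 5.297 to 8.49 on SD and 2.01 to 4.07 on HFD, with no overlap, and differed by -1.15. Cpt1b, which admits fatty acids to mitochondria, was 12.99, 4.91, 14.9 and 5.89 on SD and 2.37, 6.202, 8.64 and 2.67 on HFD and overlapped (-0.92, -0.72 without P392). Genes of leptin, insulin and JAK-STAT signalling had a median of -0.0034 (-0.040 without P392) with none of 21 at an unadjusted p under 0.05, and glucocorticoid response genes -0.058 (-0.21 without P392). In that last list Cdkn1a, a cell cycle inhibitor, was 7.69, 7.06, 8.21 and 6.62 on SD and 4.95, 4.21, 3.86 and 6.34 on HFD, lower in each HFD mouse, by a log2 difference of -0.58 (-0.71 without P392).

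In several large families most members differed by a small amount in the same direction, with few at a low p. Chaperones and enzymes of folding in the endoplasmic reticulum (ER) were higher on HFD in 25 of 26 genes, with a median of 0.21, and without P392 in 20, with a median of 0.11. Dnajb9, a co-chaperone, was 125, 78.4, 116 and 83.7 on SD and 190.2, 145, 92.7 and 149 on HFD, and Hspa5, the most abundant chaperone of the list, 663, 506, 529.9 and 401 on SD and 756, 620.1, 501 and 786 on HFD. P385 and P392 were the highest and P391 lay with the SD mice in both genes, and in Hspa5 P390 also lay below the SD mouse P356. At an unadjusted p under 0.05, 5 genes were higher with P392 (Dnajb9, Creld2, Dnajb11, Pdia4 and Herpud1) and 1 without it (Dnajb9), beside 1.92% and 1.26% of all tested genes. The list's summed level was 4537, 3476, 3888 and 3321 on SD and 5099, 4145, 3329.9 and 5172 on HFD, with overlap.

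Cytosolic ribosomal protein genes were higher on HFD in 77 of 79 (median 0.14, 0.12 without P392), nuclear genes of oxidative phosphorylation in 52 of 58 (median 0.10, 0.082 without P392) and mitochondrial ones in 12 of 13 (median 0.085, 0.079 without P392). The mitochondrial median turned to -0.0096 under quantile normalization and was 0.59 with the animal-number range as a covariate (0.57 without P392). The SD mutant P357 enters that covariate fit. Its mean log2 level of the mitochondrial list was 12.84, against 11.14 to 11.27 in the other SD mutants. At an unadjusted p under 0.05 there were 3 higher and 1 lower among the ribosomal genes, 1 higher among the nuclear and 0 among the mitochondrial ones, beside 1.92% and 2.20% of all tested genes, and without P392 2 higher and 1 lower, 0 and 0, beside 1.26% and 1.93%. The summed value of the ribosomal list was 73273, 58739, 59409 and 56167 on SD and 77769, 60918, 62292 and 68724 on HFD. P385 and P356, on different diets, were the highest, and without P385 the ribosomal median was 0.066 and without P356 0.22. In mutants the medians of the 3 families were -0.13, -0.13 and -0.37, and without the SD mutant P357 -0.059, -0.040 and 0.049, so that the mitochondrial one turned. Members of such a family vary together within a library, so a count of members in 1 direction is not a count of separate findings.

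**Figure D3:**
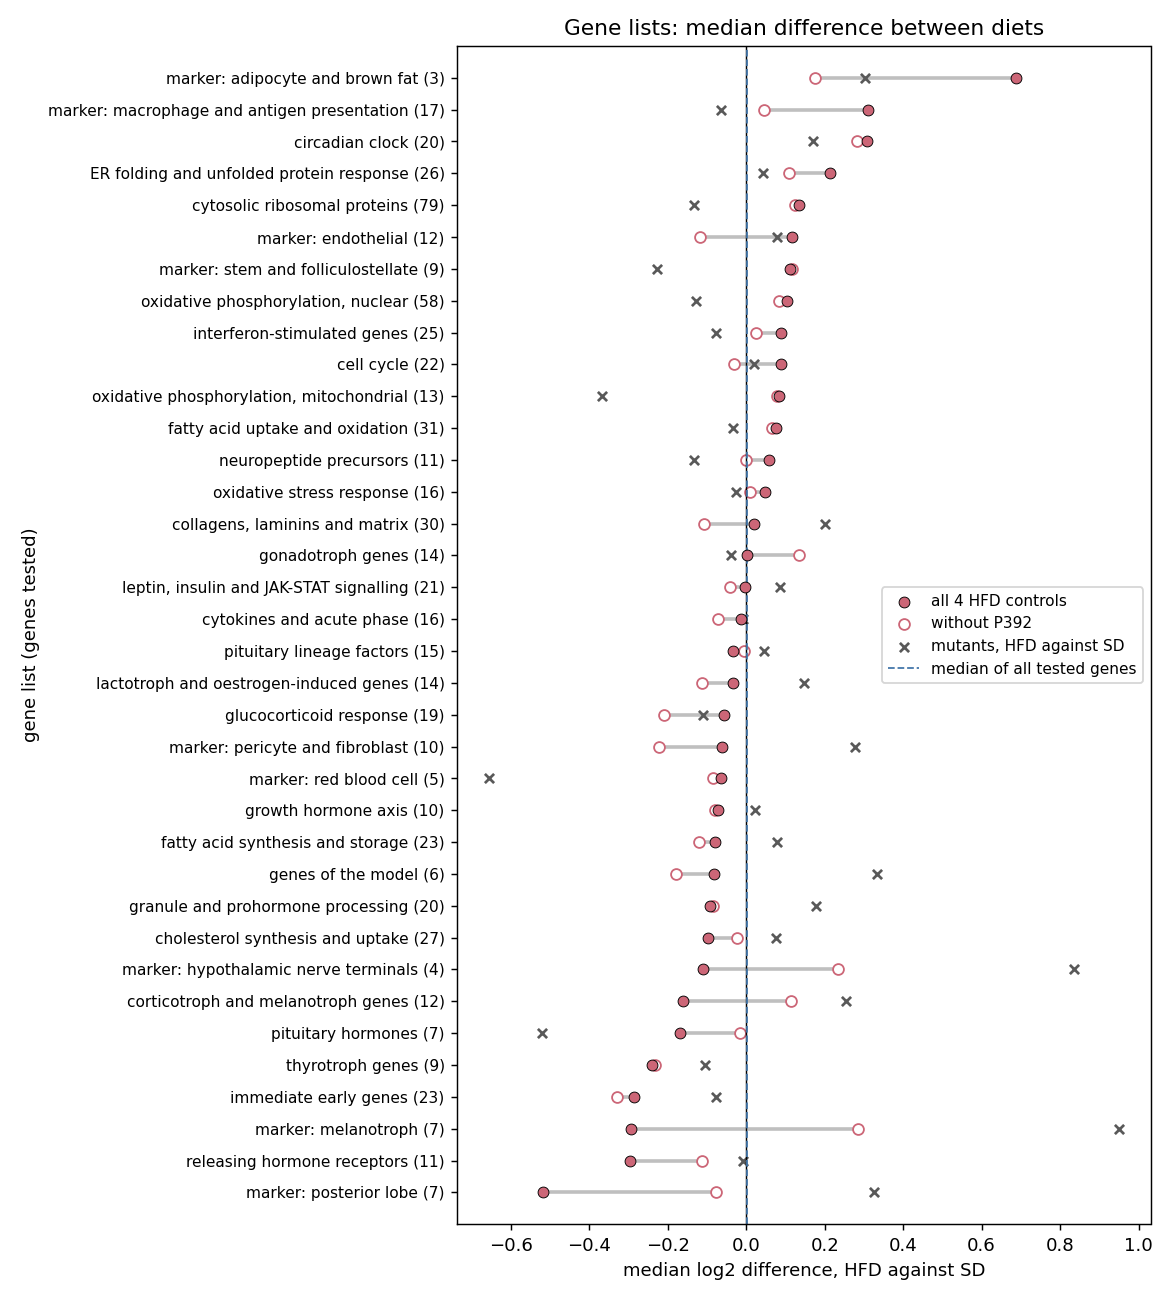
Median log2 difference between HFD and SD for each of 36 gene lists, in controls with all 4 HFD mice (filled), in controls without P392 (open) and in mutants (crosses), with the number of tested genes in brackets and the median of all tested genes as a dashed line near 0. The clock and ribosomal medians stay nearly in place without P392, and those of melanotroph and endothelial markers change sign.

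Markers of other cell types followed P392. Melanotroph markers, of the intermediate lobe, had a median of -0.29 with P392 and 0.28 without it. All 7 were tested, Pcsk2 was the most abundant, and their summed value was 143, 157, 167 and 212 on SD and 182, 171, 301 and 74.6 on HFD. Posterior lobe markers (7 of 9 tested, most abundant Col25a1) went from -0.52 to -0.077, with summed values of 25.7, 24.9, 26.8 and 35.4 on SD and 28.9, 24.1, 27.2 and 18.6 on HFD. Nkx2-1, which defines the posterior lobe and drives the Cre of the mutants, was 1.54, 1.56, 2.32 and 1.51 on SD and 1.7002, 1.303, 0.997 and 0 on HFD, at 0 in P392 only. Markers of hypothalamic nerve terminals (4 of 6 tested, most abundant Oxt) had a median of -0.11 (0.23 without P392) and summed values of 37.9, 37.8, 38.6 and 52.7 on SD and 50.8, 46.2, 38.1 and 34.9 on HFD. P392 was thus the lowest control in all 3 sets. Of the mutants P357 was lower still, at 30.03, 15.8 and 20.7, and the other 7 lay above P392, at 164 to 277, 29.9 to 48.9 and 57.8 to 83.3.

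The opposite held for vessel, connective tissue and immune markers. The endothelial median was 0.12 with P392 and -0.12 without, over 12 genes with Plvap the most abundant, and their summed value was 173, 195, 185 and 159 on SD and 153, 168, 168 and 309 on HFD. The pericyte and fibroblast median went from -0.063 to -0.22 (most abundant Col1a2), with a summed value of 852 in P392 and 179 to 323 in the others. For macrophage and antigen presentation genes it went from 0.31 to 0.045 (most abundant Cd74), and the summed value was 304, 417, 377 and 533 on SD and 258, 373, 540.4 and 821 on HFD, high in P392, P391 and P383. Collagens, laminins and other matrix genes had a median of 0.020, and without P392 -0.11 with 25 of 30 lower. Without P392, 1 was higher and 3 were lower at an unadjusted p under 0.05, beside 1.26% and 1.93% of all tested genes. Of 9 fat cell markers 4, Adipoq and Lep among them, are not listed in the file and 3 were tested (most abundant Cidea), with a median of 0.69, and without P392 only 2 were tested, 1 higher and 1 lower (0.17). Fabp4, also of this list, was 9.51, 5.78, 5.18 and 2.85 on SD and 6.93, 7.29, 6.95 and 26.03 on HFD. Red blood cell genes, led by Hbb-bs, summed to 581, 582, 3252 and 1679.9 on SD and 774, 1782, 956 and 1218 on HFD, highest in P359, and their median was -0.065 (-0.085 without P392). That median ran from -0.42 to 0.42 over the alternatives and turned without P359, P383, P385 or P391. Stem and folliculostellate markers, led by Mia, had a median of 0.11 (0.12 without P392). In this list Aldh1a1, an enzyme of retinoic acid synthesis, was 10.1, 9.68, 7.799 and 9.798 on SD and 10.8, 11.2, 14.3 and 16.4 on HFD, higher in each HFD mouse (log2 difference 0.46, 0.35 without P392). In the mutants other than P357 the summed values ran from 238 to 271 for endothelial, 354 to 709 for fibroblast, 423 to 1724 for macrophage and 23.3 to 33.1 for fat cell markers, and P357 had 329, 345, 585 and 36.5. P392, with 36.1 for fat cell markers, lay above these 7 mutants in the endothelial, fibroblast and fat cell sets and within their range in the macrophage set. The part of these marker differences in the other results was not tested.

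**Figure D4:**
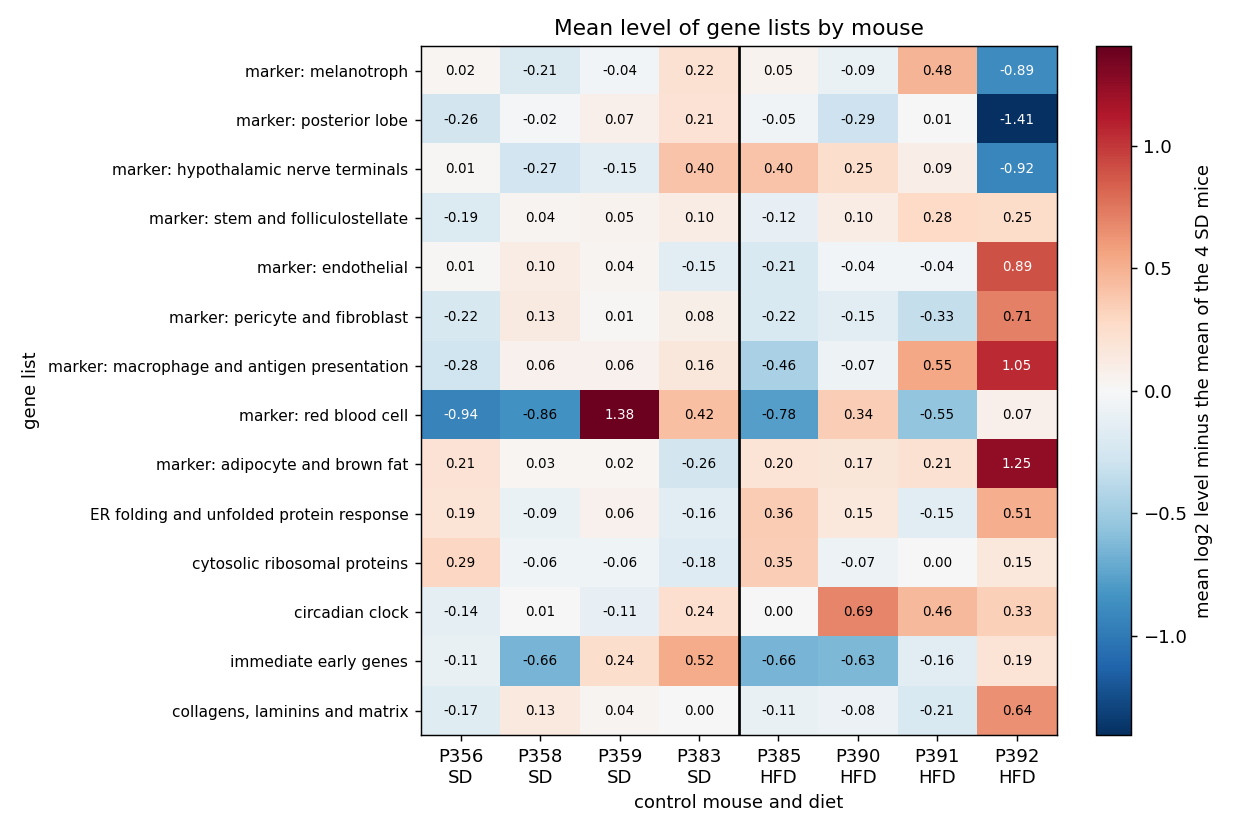
Mean log2 level of 14 gene lists in each control mouse, minus the mean of the 4 SD mice, as numbers and colours, with the diets parted by a line. P392 is the lowest in the melanotroph, posterior lobe and nerve terminal lists and the highest in the endothelial, fibroblast, macrophage, fat cell and matrix lists, and the clock list is highest in P390 and P391.

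The list medians for inflammation, oxidative stress and cell division were small. Interferon-stimulated genes were higher in 20 of 25 (median 0.089), and in 14 of 24 without P392 (median 0.026), and the median turned to -0.051 without P356. None of them had an unadjusted p under 0.05, with P392 or without it. Cytokine and acute phase genes had a median of -0.013 (-0.071 without P392). In that list Il1r1, the receptor of interleukin 1, was 5.18, 12.4, 14.2 and 9.89 on SD and 4.39, 5.81, 5.605 and 5.28 on HFD, lower on HFD apart from P356 (log2 difference -0.84, with and without P392 alike at -0.84). Oxidative stress genes had a median of 0.048 (0.011 without P392) and cell cycle genes 0.088 (-0.031 over 19 of the 22 without P392). At an unadjusted p under 0.05, 3 of 16 oxidative stress genes were higher and 0 lower (1 and 0 without P392). Of the cell cycle genes 0 were higher and 1 lower (0 and 2 without P392). These stand beside 1.92% and 2.20% of all tested genes (1.26% and 1.93% without P392).

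A further set of genes split the controls by P392 itself. Spp1, which encodes osteopontin, was 43.3, 35.2, 27.6 and 31.1 on SD and 57.2, 46.6, 46.1 and 254 on HFD. Timp1, an inhibitor of matrix proteases, was 4.93, 3.5002, 4.65 and 3.08 on SD and 5.64, 7.62, 5.503 and 30.04 on HFD. Msc, a helix-loop-helix repressor, was 2.75, 1.498, 1.65 and 0.806 on SD and 3.796, 6.34, 2.92 and 14.8 on HFD. In all 3 each HFD mouse was above each SD mouse, and P392 was far the highest. Their log2 differences were 1.13, 1.13 and 1.60 with P392 and 0.55, 0.58 and 1.17 without. The mutants had 103 to 225, 6.82 to 21.8 and 5.97 to 19.6. Kcng2, a potassium channel subunit, was 0.146 to 0.344 on SD, 0.551 to 1.34 in 3 HFD mice and 4.13 in P392. Other genes separated the diets only without P392. Hist1h4c was 5.804, 4.198, 6.21 and 5.91 on SD and 2.26, 2.84, 2.09 and 11.1 on HFD, and its log2 difference was -1.05 without P392 (limma adjusted p 0.0931) and -0.55 with it. Since histone genes have near-identical copies, this value is uncertain. Aldh1l2, a mitochondrial enzyme of folate metabolism, was 7.78, 6.89, 10.6 and 7.95 on SD and 4.73, 3.19, 3.39 and 14.6 on HFD, at -1.04 without P392 and -0.58 with it. The collagen gene Col24a1 went from -0.54 to -1.09 and Odaph from -0.29 to -1.09.

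The other genes that the naming rule picked for large differences with no overlap form no list. Among the higher ones, Cyp2a5, a cytochrome P450, was 1.58, 2.797, 3.75 and 7.496 on SD and 7.74, 11.3, 12.5 and 14.6 on HFD, with P383 at the top of the SD mice and just under P385. Its log2 difference was 1.59 (1.47 without P392, 0.94 with the animal-number range as a covariate), and close relatives of the gene make its value uncertain. Pglyrp1, a protein that binds bacterial peptidoglycan, was 1.298, 0.343, 0.835 and 1.73 on SD and 2.57, 2.55, 2.42 and 3.29 on HFD. It was higher in each HFD control (1.13, 1.05 without P392) and lower in each HFD mutant (-0.96), with an interaction of 2.10 that did not pass (limma adjusted p 0.415). Gpr34, a receptor of microglia and macrophages, was 0.269, 0.514, 0.1702 and 0.1699 on SD and 0.872, 1.15, 1.33 and 1.62 on HFD (1.16), and without P392 its mean was under the filter.

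Among the lower ones, Fzd5, a Wnt receptor, was 5.86, 8.87, 8.56 and 7.87 on SD and 3.34, 4.15, 3.55 and 2.65 on HFD, with a log2 difference of -1.08 (SE 0.27, limma adjusted p 0.644) and -0.98 without P392. Each SD mouse had more than any HFD mouse. Hsd17b14, a steroid dehydrogenase, was 7.65, 9.64, 10.6 and 8.46 on SD and 4.24, 3.73, 5.801 and 4.08 on HFD, likewise with no overlap, and differed by -0.96 (-0.93 without P392). Pabpc1l, of the family that binds poly(A) tails, was 26.4, 23.6, 19.1 and 17.5 on SD and 17.2, 6.18, 11.99 and 2.16 on HFD, and its difference went from -1.47 to -0.94 without P392, the lowest mouse. Zfp618 (-1.36), Ttll9 (-1.19), Naip5 (-0.96), Plch2 (-0.87) and Olfr1348 (-0.82) complete the 10, all with mean values under 10 in every group of controls, and without P392 they differed by -1.25, -1.12, -0.70, -0.64 and -0.76. Plat, which encodes tissue plasminogen activator, differed by less but evenly, at 26.7, 25.9, 26.5 and 24.7 on SD and 20.2, 19.4, 19.3 and 19.1 on HFD. It was lower in each HFD control (-0.40, -0.39 without P392, limma adjusted p 0.556) and in each HFD mutant (23.1 to 25.1 against 32.2 to 42.4, -0.54), and in mutants it passed with weighted libraries (adjusted p 0.0148). Echdc3 was 11.9, 10.8, 11.9 and 13.1 on SD and 9.48, 28.7, 37.5 and 29.3 on HFD, higher in 3 HFD mice and not in P385, and it passed without P385 (limma adjusted p 0.00485) and with no other single control left out (0.00485 to 1.00 over all 8).

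In some of the largest differences the SD mouse P383 lay with the HFD mice. Rpl29 was 349.7, 264, 279.6 and 8.45 on SD and 9.61, 10.97, 11.1 and 9.09 on HFD. Alox15 was 10.9, 13.5, 20.1 and 0.657 on SD and 0.386, 0.641, 0.427 and 1.196 on HFD, and its neighbour Alox12e on chromosome 11, which like Alox15 encodes a lipoxygenase, was 20.9, 26.3, 28.3 and 2.18 on SD and 1.48, 2.69, 1.99 and 1.99 on HFD. In all 3 genes the SD mice P356, P358 and P359 were high and P383 was low. Their log2 differences between diets were -3.53, -2.81 and -2.54 (-3.48, -3.00 and -2.53 without P392, and -1.35, -1.996 and -1.85 with the animal-number range as a covariate), and without P383 both lipoxygenase genes passed (limma adjusted p 0.00239 and 0.00127). The high and low levels are also found among mutants for Rpl29, where P339 on HFD had 328 and the other 7 ran from 6.06 to 18.6. Rpl29 has near-identical copies in the genome, so its value is uncertain. The remaining gene that passed without P383 beside Ciart, Dbp and Ptges3l was Gm20530, at 1.24, 1.21, 0 and 4.85 on SD and 5.05, 5.35, 8.14 and 7.99 on HFD. With no overlap, 210 genes were higher and 184 lower in the 5 controls of the upper range than in the 3 of the lower. That was 2.75% of the tested genes, and for diet the share was 2.61%. A split of 5 against 3 and one of 4 against 4 leave genes without overlap at different rates by construction. The 2 shares can therefore not be ranked. In controls the range and the diet differ by P383 alone.

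**Figure D5:**
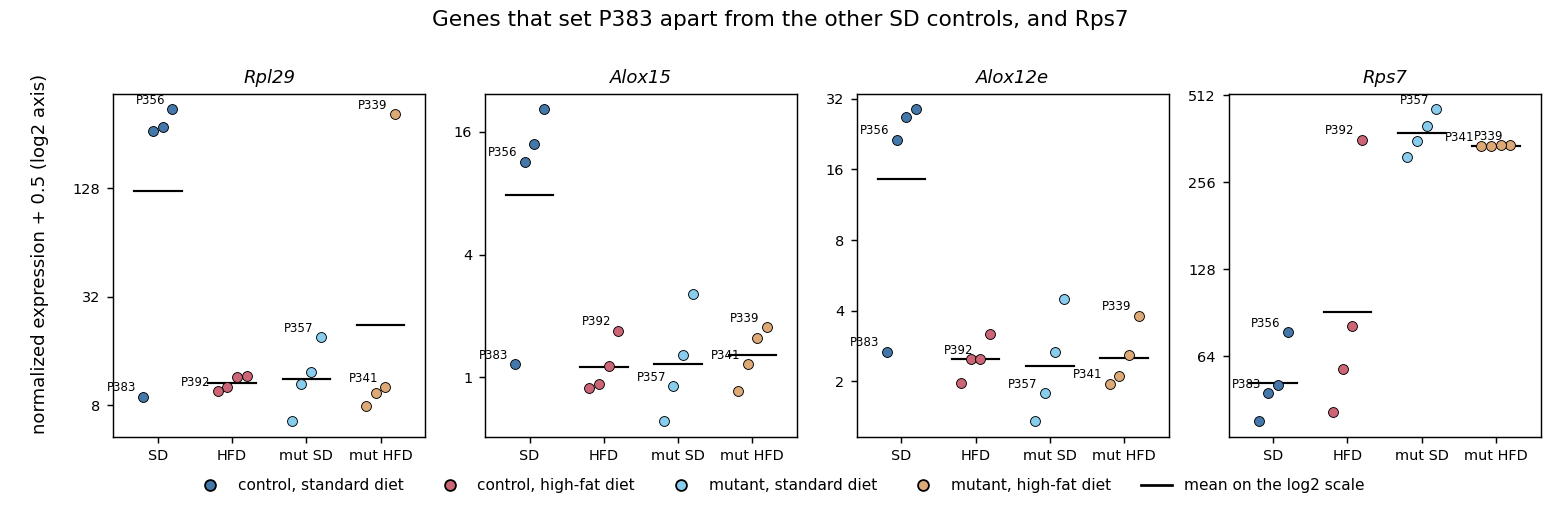
Normalized expression plus 0.5 of Rpl29, Alox15, Alox12e and Rps7 in all 16 mice by genotype and diet, on log2 axes, with a line at each group's mean and named mice marked. P383 lies apart from the other SD controls in Rpl29, Alox15 and Alox12e, and P392 lies with the mutants in Rps7.

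Set beside the controls, the mutants had 0 genes at an adjusted p under 0.05 between their diets (0%) and 717 at an unadjusted p under 0.05 (5.0%) in limma. Single mutants moved this count to 1344 without P384, 1111 without P381, 465 without P357 and 445 without P339, each with 0 after adjustment. Without the control P383, which enters here only through the spread, 1 gene passed in mutants (Gm11331), and in a fit of the 8 mutants alone 2 did (Gm11331 and Gm13988). The interaction of diet with genotype had 0 genes past the threshold (0%) and 602 at an unadjusted p under 0.05 (4.20%), with 963 at that p without P356 and 936 without P384. With the animal-number range as a covariate the 2 counts were 1194 in mutants and 1468 for the interaction, with 0 after adjustment in limma. Without P383 1 gene passed the interaction test, Alox12e, and with weighted libraries 1, Ptges3l. Across genes, which are not independent replicates, the log2 differences of controls and of mutants correlated at 0.0889 (Pearson) and 0.0404 (Spearman), and at 0.0147 and -0.0373 without P392. Of the 592 genes at an unadjusted p under 0.05 in controls, 326 had the same direction in mutants (237 of 457 without P392). Over all tested genes 50.3% were higher on HFD in controls and 54.2% in mutants. The share of all tested genes with the same direction in both was not counted, so this count and the next have no background beside them. Of the 55 genes at that p in both, 40 had the same direction, among them Dbp, Per2, Nr1d2, Npas2, Acot1 and Plat.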

How the data were processed

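Pituitary RNA of 16 female mice was sequenced as 1 library per mouse, and the 8 controls were compared by diet. The deposited signal, normalized expression per gene and mouse, was made by the authors with kallisto in gene mode on the mouse transcriptome (mm10), tested by them with sleuth, versions not given. It is not a count. Identifiers were matched to symbols and GENCODE positions (GRCm38) for 17356 of 17362 genes. All genes with a mean of at least 1 entered a linear model of group means on log2(value + 0.5), fitted to 16 mice and to 15 without P392. The tools were R 4.3.3 and limma 3.58.1 (eBayes with trend, Benjamini-Hochberg adjustment, threshold 0.05). Differences are HFD minus SD. The script was tested on simulated data. Single genes were also compared by two-sided exact permutation of 4 mice against 4, whose smallest p is 0.0286. Alternatives changed the filter, pseudocount, scaling, variance model, weights, covariate, threshold and mice. Python 3.11.15, numpy 2.4.6, pandas 2.3.3 and matplotlib 3.10.9 were used.

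The genes named are the pituitary hormone genes and those of the model, the 10 largest increases and 10 largest decreases with an unadjusted p under 0.05 and no overlap between the diets (with P392, and the same without it), any gene past the adjusted threshold, and for each of 36 gene lists its most abundant tested member and the 2 members with the largest differences with and without P392. The text prints those it needs. Some genes that fall under this rule are not reported here. Gene lists are described by counts and medians beside all tested genes, with no test of a list. Members and lists were chosen with earlier results of these data known.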

Additional observations from a re-analysis of the deposited data

Results flagged for a closer look

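A Dixon test (95% critical value) was applied to the 4 controls of each diet, over 123 measures: 6 properties of the libraries, the mean log2 level of the 36 lists, and the genes of the text on the log2 scale. Of 246 sets of 4, 19 held a mouse apart from its group, where chance gives about 1 in 20, and many of the measures overlap. Some genes of the text, such as Alox12e, were chosen after their values were seen, so the 19 cannot be compared with that rate. P392 accounts for 8 of the 19, more than any other mouse.

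Among the HFD controls, P392 had the lowest mean correlation with the other controls (0.932, others 0.961 to 0.963). It had the highest mean log2 levels of neuropeptide precursors (4.67, others 2.54 to 2.83), of collagens, laminins and matrix (3.62, others 2.77 to 2.8999), of endothelial markers (4.19, others 3.09 to 3.26) and of fat cell markers (3.03, others 1.95 to 1.99). It also had the highest normalized expression of Spp1 (254, others 46.1 to 57.2), Fabp4 (26.03, others 6.93 to 7.29) and Ccn3 (1.59, others 0.862 to 0.922), the last near the filter.

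Other HFD controls stood out in single genes. P390 was the lowest in Arntl (5.11, others 12.1 to 13.6), P391 the highest in Ptges3l (26.8, others 21.8 to 22.4) and P385 the lowest in Esr1 (23.6, others 39.6 to 43.4).

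Among the SD controls, P356 was the highest on the leading principal component (18.6, others -22.5 to -18.7), in the mean log2 level of neuropeptide precursors (3.32, others 2.45 to 2.53) and in Prlh (17.1, others 0), which was 7.71 in P385 and 556 in P392 on HFD. With all other SD mice at 0, any value above 0 in Prlh would have been flagged. P383 was the highest in Tef (99.1, others 47.8 to 51.5) and the lowest in Rpl29 (8.45, others 264 to 349.7) and Alox12e (2.18, others 20.9 to 28.3). P358 was the highest in Plch2 (6.27, others 3.16 to 3.54) and P359 in Nkx2-1 (2.32, others 1.51 to 1.56). No gene passed the test of an interaction between diet and genotype with all 16 mice in limma, where 602 had an unadjusted p under 0.05.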

How the results depend on the processing

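The count of genes past the adjusted threshold between diets in controls, 0 in limma with 592 at an unadjusted p under 0.05, was 5 with weighted libraries, 2 at an adjusted p under 0.1, and 0 to 6 when each control mouse was left out, with the 6 without P383 and 2 without P385. Without P392 it was 0 (458 at an unadjusted p under 0.05), and it was 2 with genes of a mean of at least 5, 6 with weighted libraries, 4 at an adjusted p under 0.1, and 0 to 3 when another control was left out. The interaction count of 0 (602 unadjusted) was 1 with weighted libraries and 0 to 1 when each mouse was left out. The count in mutants of 0 (717 unadjusted) was 1 with weighted libraries, 2 in a fit of the 8 mutants alone and 1 without the control P383. All other filters, pseudocounts, scalings, the variance without trend and the animal-number range as a covariate gave 0 for these 4 counts. The 375 genes with no overlap between the diets in controls became 571 to 1398 when 1 mouse was left out, the highest without P356. Fewer mice leave more genes without overlap by construction, and apart from that the cause was not tested.

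Of 81 single genes followed under the alternatives to the fit of all mice, 72 kept their direction in all of them, none with an unadjusted p under 0.05 changed direction, and 10 passed the adjusted threshold in at least 1. Of the 36 list medians 14 kept their sign in all, among them those of the clock (0.032 to 0.49), immediate early (-0.66 to -0.0060), ER folding (0.11 to 0.37) and ribosomal (0.064 to 0.22) lists. After the values were seen, the same alternatives were run with P392 left out as well. Over both sets 12 genes passed in at least 1, the added ones being Hist1h4c and Aldh1l2, 70 genes and 11 lists kept 1 direction, and no gene with an unadjusted p under 0.05 turned. The cholesterol, posterior lobe and macrophage lists turned in this second set only, up to 0.0040, up to 0.12 and down to -0.23. There the clock ran from 0.14 to 0.55, immediate early genes from -0.85 to -0.22, ER folding from 0.0088 to 0.24 and ribosomal genes from 0.00066 to 0.20. Each mutant was then left out in turn for the values in mutants, also after they were seen, and the mitochondrial median of -0.37 ran from -0.52 to 0.049, the highest without P357. No paired analysis was possible because the labels carry no replicate numbers shared between the diets. The number of mice, 4 on each diet, and the lack of read counts limit the precision.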
